A study of Mus musculus with 4 samples.

Results

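The 9 genes described here, Meis2, Adora2a, Ppp1r1b, Scn4b, Foxp2, Rgs9, Drd2, Isl1 and Syndig1l, are best known from the projection neurons of the striatum, and they were read here in RNA of the dentate gyrus of mice, from its granule cell layer. They were named in advance as striatal-type genes with a high signal in the inner granule cell layer of young mice, so that contrast chose them and is given as a description with no test. On the array 8 of the 9 were found under their own gene name, and Syndig1l was found by its accession under the older name Tmem90a. They make up 9 of 30458 genes on the array and have 16 probes, of which 14 gave a signal well above background on young inner.

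Laser capture microdissection was used to cut the granule cell layer, dorsally in the dentate gyrus of wild type female C57BL/6J mice, into an inner side, facing the subgranular zone, and an outer side, facing the molecular layer. The 4 groups were young inner and young outer, from mice of 3 months, and senile inner and senile outer, from mice of 20 to 24 months. Each group was 1 sample pooled from 8 mice and hybridised to 1 one-colour Agilent array, so the spread between mice was not measured and no difference below has a replicate check. A level below is the log2 signal of a probe minus the 75th percentile of its array, so that 0 is the signal at that percentile and each unit is a 2-fold difference.

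Between 75.6% and 77.5% of probes were well above background on each array, no spot was saturated, and the 4 arrays carried the same scan time. Repeated spots had a median SD of 0.067 to 0.072 log2 per probe, which is error within an array. All 14 listed markers of mature granule neurons gave a signal well above background on young inner. None of the 14 was as much as 1 log2 above or below the mean of the other 3 arrays there. In such bulk samples, fewer cells of a type and less RNA per cell cannot be told apart.

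Projection neurons of the striatum are inhibitory cells that receive dopamine from the midbrain and answer to it through cyclic AMP. Those of the indirect pathway carry the dopamine receptor Drd2 and the adenosine receptor Adora2a, which act on cyclic AMP in opposite directions, and those of the direct pathway carry Drd1. Protein kinase A, which cyclic AMP switches on, phosphorylates the product of Ppp1r1b, known as DARPP-32, and turns it into an inhibitor of protein phosphatase 1. None of these genes is exclusive to the striatum: Drd2, for example, is also known from the mossy cells of the dentate hilus, which lies just inside the granule cell layer.

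The signals rest on short stretches of each transcript, so the 5′ ends of the probes that carry the main readings are given, 30 bases each. For the 4 genes with the highest excess on young inner, each had 1 probe. Per the file headers, the build of the coordinates is mm9.
Meis2, chr2:115689641-115689700: ggactaagttaaacttgtacatttctgttg
Adora2a, chr10:74797461-74797520: gcttgtttgtttgtttgtgttttattttcc
Drd2, chr9:49215047-49215106: atcctgaatatacactgtgactgcaacatc
Ppp1r1b, chr11:98218965-98219024: aatgcacttactatctgtccttagggggcc

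Rgs9 had 4 probes and they are shown because they did not give the same reading. Capitals mark letters that the first pair have in common, since these 2 probes overlap by 54 bases and are no independent readings.
Rgs9, chr11:109086675-109086734: aggcatGTGGGCCAGAAGATATCCCTTGCT
Rgs9, chr11:109086669-109086728: GTGGGCCAGAAGATATCCCTTGCTGCCTTA
Rgs9, chr11:109121142-109121201: caatgtgttagactacggcctggaccgcgt
Rgs9, chr11:109096382-109096441: tatagactttgctatctcagcactcagggg

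The 3 Foxp2 probes that were well above background on young inner are shown for the same reason, together with the probe of Isl1, the gene that departed from the others.
Foxp2, chr6:15355616-15355675: tcagagcccaaaccatctcccaaacctgta
Foxp2, chr6:15391821-15391880: cagaaaagaggggtgtacatttttctttag
Foxp2, chr6:15363873-15365044: actgtggacgaagtcgaataccagaagcga
Isl1, chr13:117088774-117088833: cccccaaagatgtgtatagttattggttaa

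The genome position of the third Foxp2 probe runs over 1172 bases, so it is split between separate stretches of the genome. The exon or intron that each probe lies in was not analysed here. Scn4b was read by a probe at chr9:44962045-44962104 and Syndig1l by a probe at chr12:86018237-86018296.

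All 9 genes were at least 1 log2, that is 2-fold, higher on young inner than on the mean of the other 3 arrays, against 5.79% of the 25233 genes well above background on at least 1 array. This count was fixed by the choice of the genes and is no result about them. Their excess over that mean ran from 1.45 for Syndig1l to at least 5.61 for Meis2, and was at least 1.29 for Isl1, the last 2 being bounds because of readings not well above background. The median was 2.29 with both at their bound and 2.68 with all readings as measured, while the median over all genes was -0.07. Young inner was the highest of the 4 arrays for 8 of the 9, against 22.8% of all genes. It was at least 1 log2 above the next highest array for 7 of the 9, against 2.91% of all genes. Both counts come from the values that chose the genes, so they too are no result about them. The exceptions were Isl1, which was highest on young outer, and Syndig1l, which was only 1.42-fold higher on young inner than on young outer.

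**Figure D1:**
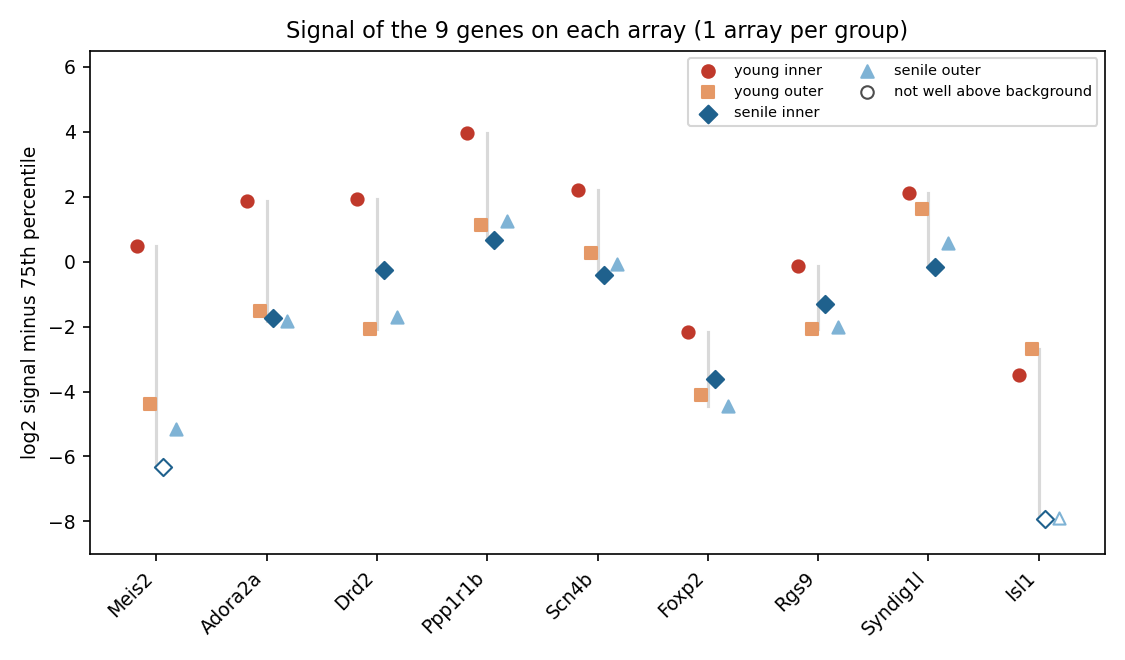
Level of each of the 9 genes on the 4 arrays, in log2 signal minus the 75th percentile of the array on the vertical axis, with 1 symbol per array, hollow where the gene was not well above background, and a grey line over the range. Young inner is the top symbol for 8 genes, by 4.87 for Meis2 and 0.50 for Syndig1l, and Isl1 is 0.81 higher on young outer.

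Among the receptors, Adora2a, the adenosine receptor that raises cyclic AMP, had a level of 1.87 on young inner, -1.52 on young outer, -1.73 on senile inner and -1.83 on senile outer. Young inner stood alone, and the other 3 arrays lay within 0.31 of each other. The signal on young inner was 10.5-fold that on young outer, 12.1-fold that on senile inner and 13-fold that on senile outer. The excess of 3.57, or 11.9-fold, placed Adora2a 51st among the 25233 genes.

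Drd2, the dopamine receptor that lowers cyclic AMP, stood at 1.94 on young inner, -2.07 on young outer, -0.24 on senile inner and -1.70 on senile outer. Both inner arrays were above both outer arrays, with young inner highest. The signal on young inner was 16.1-fold that on young outer, 4.53-fold that on senile inner and 12.5-fold that on senile outer. Its mean excess was 3.28, or 9.70-fold.

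Downstream of both receptors, Ppp1r1b had a level of 3.98 on young inner, 1.12 on young outer, 0.68 on senile inner and 1.26 on senile outer. The 3 lower arrays were close together and all above the 75th percentile of their array, so the gene was also readily detected outside young inner. Young inner was 7.24-fold above young outer, 9.84-fold above senile inner and 6.58-fold above senile outer, an excess of 2.96.

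Rgs9 encodes a regulator that speeds the shut-off of inhibitory G proteins, in a long splice form in striatum and a short one in retina. Its brightest probe read -0.14 on young inner, -2.08 on young outer, -1.30 on senile inner and -2.0 on senile outer. Young inner was highest and senile inner second, and the outer arrays were nearly equal. The excess was 1.65, or 3.14-fold, with young inner 3.82-fold above young outer and 2.23-fold above senile inner.

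The other Rgs9 probes did not all repeat that reading. The overlapping probe read -0.03 on young inner, -2.26 on young outer, -1.33 on senile inner and -2.21 on senile outer, an excess of 1.90. The probe at chr11:109121142-109121201 read -1.28, -3.02, -2.16 and -2.36 in the same order, an excess of 1.24. For the probe at chr11:109096382-109096441 the levels were -1.05, -1.70, -1.77 and -1.21. On this last probe young inner was still highest, but by only 0.51 over the mean of the others and with senile outer close behind, so 3 of the 4 probes had an excess of at least 1.

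Scn4b, an accessory beta subunit of voltage-gated sodium channels, had a level of 2.22 on young inner, 0.27 on young outer, -0.42 on senile inner and -0.06 on senile outer. The 3 lower arrays again lay close together. Young inner was 3.86-fold above young outer, 6.21-fold above senile inner and 4.85-fold above senile outer, an excess of 2.29.

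Among the transcription factors, Meis2, a homeodomain protein of developing and adult striatal neurons, stood furthest apart. Its level was 0.49 on young inner, -4.38 on young outer and -5.15 on senile outer, and on senile inner the probe was not well above background at -6.32. Such a reading gives only a bound, taken against the probe's own signal or, if higher, against the dimmest probe that the same array still called well above background. Young inner was 29.2-fold above young outer, 49.8-fold above senile outer and at least 79.8-fold above senile inner. The excess of at least 5.61, or 48.8-fold, ranked 7th among all 25233 genes.

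Foxp2, a forkhead repressor known from striatal and deep cortical neurons, was dim throughout. Its brightest probe read -2.16 on young inner, -4.11 on young outer, -3.60 on senile inner and -4.46 on senile outer, an excess of 1.90 or 3.73-fold. Young inner was highest by 1.44 over senile inner.

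A second Foxp2 probe, at chr6:15391821-15391880, was well above background on young inner only, at -3.12, and read -7.80, -8.08 and -8.03 on young outer, senile inner and senile outer. Its signal on young inner was at least 6.76-fold that of the others. The third, at chr6:15363873-15365044, was likewise above background on young inner only, at -4.69, with -6.39, -8.12 and -6.48 on the others, at least 2.26-fold. The 2 remaining probes, at chr6:15204809-15204868 and chr6:15147188-15147247, were not well above background on any array. The 3 probes that gave a signal all read highest on young inner. For the 2 that were well above background on young inner only, this order follows from where they were detected. They are therefore no separate check on the order of the arrays. Only the brightest probe was well above background on all 4 arrays and so compares measured readings.

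**Figure D2:**
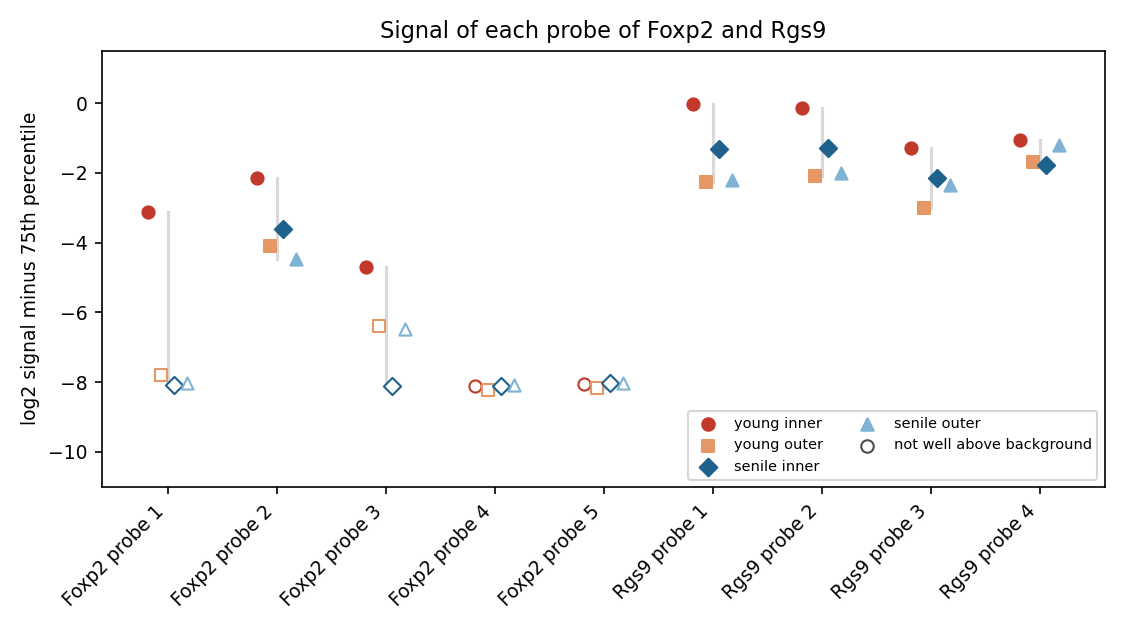
Level of each of the 5 Foxp2 and 4 Rgs9 probes on the 4 arrays, in log2 signal minus the 75th percentile on the vertical axis, hollow where not well above background. Young inner is the top symbol for 3 Foxp2 probes and for all 4 Rgs9 probes, and Foxp2 probes 4 and 5 are hollow on every array.

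Isl1, a LIM homeodomain factor of direct pathway and cholinergic neurons, went against the name under which the genes were grouped. Its level was -3.50 on young inner and -2.68 on young outer, while at -7.92 and -7.91 it was not well above background on senile inner and senile outer. It was therefore high on both young arrays and 1.76-fold higher on the outer than on the inner one. With normexp background correction all 9 genes, Isl1 included, were highest on young inner. The order of the young arrays for Isl1 thus depended on the processing. Young outer was at least 8.87-fold above senile outer and young inner at least 5.05-fold above each senile array.

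Isl1 was printed on 10 spots per array, which shows the error within an array. The 10 spots on young inner lay between -3.56 and -3.38 (SD 0.05) and those on young outer between -2.91 and -2.58 (SD 0.09), so the readings of the young arrays did not overlap. On each senile array 9 spots were used, after 1 outlier spot was left out, and 0 of the 9 were well above background. These are spots of 1 RNA pool each, and the spread between mice is not in them. The excess of Isl1 over the mean of the other 3 arrays, at least 1.29, came from the senile arrays.

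Syndig1l, a membrane protein related to the AMPA receptor partner Syndig1 and abundant in striatum, also had more signal on both young arrays. It stood at 2.12 on young inner, 1.62 on young outer, -0.17 on senile inner and 0.57 on senile outer. The signal on young inner was 1.42-fold that on young outer, 4.90-fold that on senile inner and 2.94-fold that on senile outer, an excess of 1.45. Without the senile inner array in the comparison the excess was 1.03.

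The 3 arrays other than young inner carry measurements that the choice did not use directly, though all entered its mean. Isl1 was not well above background on either senile array, which leaves 8 genes for senile inner against senile outer. Their median difference was -0.13, with 4 above 0 and 4 below, and the median over all genes was -0.11. Drd2 alone was at least 1 log2 higher on senile inner, by 1.46 or 2.75-fold, against 5.04% of all genes, and 0 were as much lower, against 4.84%. The inner side was thus not the higher side for these genes as a group in the senile samples.

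Foxp2 followed with 0.86 and Rgs9 with 0.70, while Adora2a differed by 0.11. Scn4b read -0.36, Ppp1r1b -0.58, Syndig1l -0.74 and Meis2 -0.68, the last as a bound. With 1 array on each side, these differences have no error between samples.

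Young outer against senile outer compares the ages on the side away from the subgranular zone. The median difference of the 9 genes was 0.33 and that of all genes was -0.12. Isl1, with a difference of at least 3.15, and Syndig1l, with 1.05 or 2.07-fold, were at least 1 log2 higher on young outer, against 5.14% of all genes. None of the 9 was as much lower there, against 6.17%. Drd2 read -0.37, Ppp1r1b -0.14 and Rgs9 -0.08, and Meis2 read 0.77.

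Of 31 other genes listed for striatal projection neurons and reported here, 30 were well above background on at least 1 array and Ebf1 was not. At least 1 log2 higher on young inner than on the mean of the others were 8 of the 30, against 5.79% of all genes, 0 were as much lower, against 3.00%, and 22 lay between. Of the 8, Ido1 and Sp9 were well above background on young inner only, and so entered the 30 through that array. Young inner was the highest array for 17 of the 30, against 22.8% of all genes, and the median excess was 0.36, against -0.07. These lists were drawn up with earlier results of the same arrays known.

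By pathway, 3 of 6 listed indirect pathway genes were at least 1 log2 higher on young inner, with a median excess of 1.55, beside 5.79% and -0.07 for all genes. Among direct pathway genes 2 of 7 were, with a median of 0.17, and among genes of both neuron types 3 of 17 were, with a median of 0.33. These medians rest on few genes and the lists were not tested against each other.

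Penk, the precursor of enkephalin and a hallmark of the indirect pathway, read 6.09 on young inner, 3.33 on young outer, 3.55 on senile inner and 3.83 on senile outer, an excess of 2.52 or 5.73-fold. Tac1, the precursor of substance P and a direct pathway gene, read 1.31, -1.77, -0.52 and -2.31, an excess of 2.84 or 7.16-fold.

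The other 6 were Slc35d3, Ido1, Gprin3, Sp9, Strip2 and Adcy5. Slc35d3 was at least 16.5-fold and Ido1, a tryptophan-degrading enzyme, at least 14.1-fold higher on young inner. Sp9, a zinc finger factor of indirect pathway neurons, was well above background on young inner only, at least 5.40-fold. Gprin3 was 9.27-fold higher, with senile inner also high at -2.21 against -5.65 on senile outer. Adcy5, the adenylyl cyclase that makes cyclic AMP in these neurons, had an excess of 1.28.

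Several genes at the core of striatal identity did not differ by as much as 1 log2. Drd1 had an excess of 0.50 and was lowest on senile inner, at -3.13. Pde10a had an excess of 0.22, Ptpn5 of 0.33, Gnal of 0.11, Chrm4 of 0.17, Bcl11b of -0.14 and Pdyn of -0.19. Pdyn and Bcl11b are also expressed by dentate granule cells, and both were highest on senile outer.

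**Figure D3:**
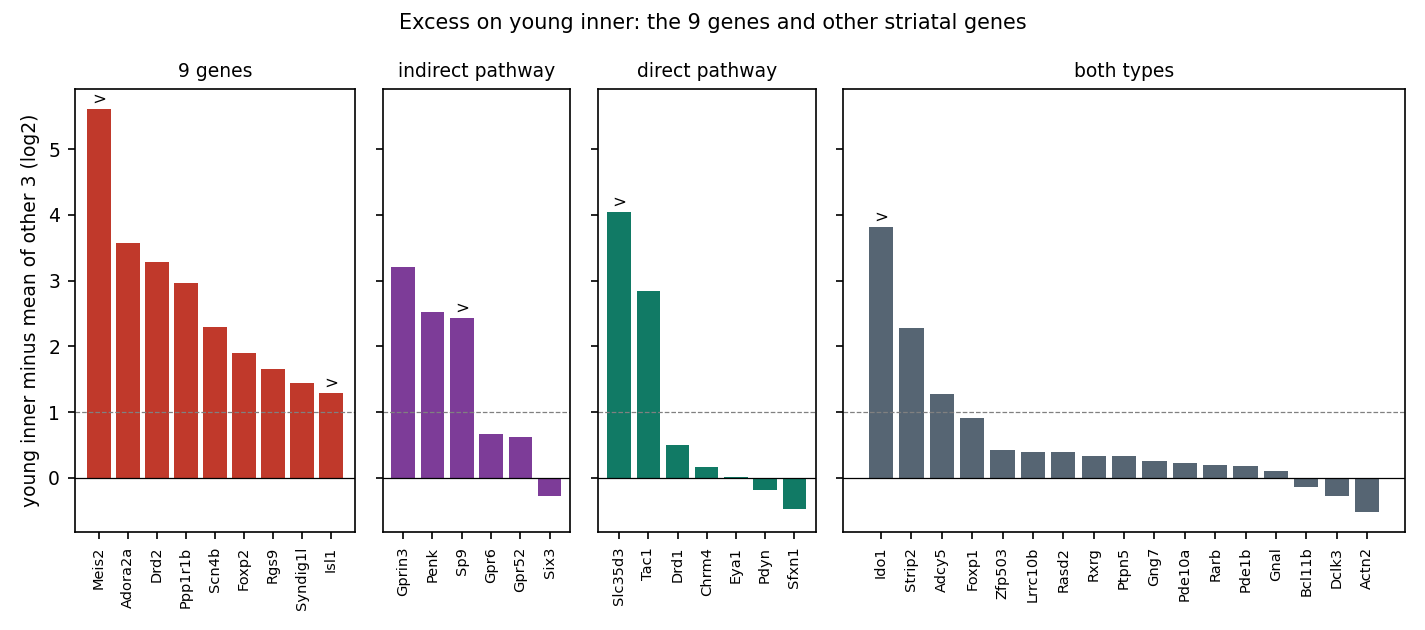
Excess of young inner over the mean of the other 3 arrays, in log2 on the vertical axis, for the 9 genes and 30 other striatal genes grouped by projection neuron type, with a dashed line at 1 and an arrowhead over bars that are lower bounds. Among the 30 genes 8 bars pass the line, up to Slc35d3 at 4.04, and 22 lie between -1 and 1.

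Partners of the 9 genes were read as a further list of 35 genes, including kinase, phosphatase and G protein subunits, sodium channel subunits and co-factors of the transcription factors. Of the 34 well above background on at least 1 array, 3 were at least 1 log2 higher on young inner and 1 at least 1 log2 lower, with a median excess of 0.02, beside 5.79%, 3.00% and -0.07 for all genes. These shares are close to those of all genes. Partners of Rgs9 lay near 0, with Gnb5, its obligate G protein subunit, at 0.00 and the membrane anchor Rgs7bp at -0.14. Rgs7, a relative of Rgs9, stood at -0.93.

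The 3 higher ones were Ldb2, Meis1 and Pbx3. Ldb2, which binds LIM homeodomain factors such as Isl1, read 1.35 on young inner, -4.03 on young outer, -1.42 on senile inner and -5.79 on senile outer, an excess of 5.10. Meis1 had an excess of at least 2.83, or 7.09-fold, and Pbx3, a partner of Meis factors, of 1.69. Syndig1, the relative of Syndig1l, was lower on young inner than on the mean of the others, with an excess of -1.62.

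Lists for other cells that a cut near the inner granule cell layer could hold were read in the same way, and their part in the levels of the 9 genes was not tested. Over the 16 lists, 46 of 174 genes (26.4%) were at least 1 log2 higher on young inner and 6 were as much lower, beside 5.79% and 3.00% of all genes. Among the 46, Calb2, Slc5a7 and Clic6 were well above background on young inner only, and so were counted through that array.

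Immature granule neurons, born in the subgranular zone, had 8 of 12 genes at least 1 log2 higher, 11 of 12 highest on young inner, and a median excess of 1.77. Their summed signal, in multiples of the 75th percentile, was 166 on young inner, 111 on young outer, 124 on senile inner and 112 on senile outer. Stmn1 alone made up 40.7% to 52% of these sums, which were 98.6, 60.3, 63.6 and 53.7 without it. Dcx, which marks newborn neurons, read 2.90, 1.46, -0.64 and -0.75 in the same order of arrays, so both young arrays were high, as for Isl1 and Syndig1l. Dcx was 2.72-fold higher on young inner than on young outer, against 1.42-fold for Syndig1l. Isl1 was lower on young inner than on young outer, except with normexp. Whether these signals share a source was not tested. Cd24a had an excess of 4.34, Eomes of 2.84 and Igfbpl1, not well above background on either senile array, of at least 3.53.

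Interneuron genes had an excess of at least 1 in 9 of 20 cases, but only 1 of the 20, Tac2, was that far above the next highest array. On senile inner against senile outer 13 of the 20 were at least 1 log2 higher, against 5.04% of all genes. Interneurons were not alone in this. The count was 7 of 10 for oligodendrocytes, 6 of 13 for neuroblasts and 4 of 9 for mossy cells and hilus, with 0 as much lower in each list. Sst read 3.00 on young inner, -0.09 on young outer, 2.56 on senile inner and -1.15 on senile outer, so both inner arrays were high. Crh, with an excess of 2.50, and Vip, with one of at least 2.29, also had young inner first and senile inner second. The summed signal of the list was 376, 343, 402 and 314, of which Lhx6 alone made up 59.1% to 81.6%. Without Lhx6, itself not higher on young inner, the sums were 154, 93.2, 123 and 57.8.

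Mossy cell and hilar genes gave a similar picture, with 4 of 9 at least 1 log2 higher and 1 lower, a median excess of 0.27, and summed signals of 9.91, 3.89, 10.2 and 5.54. Cyp26b1 read 0.92, -3.94, 0.41 and -3.99, again high on both inner arrays, whereas Calb2 was well above background on young inner only, at -3.80. Of the 9 striatal-type genes, Drd2, Foxp2 and Rgs9 shared the order of young inner first and senile inner second. The other 6 did not have senile inner as the second highest array. For Rgs9 this order was that of the brightest probe, and the Rgs9 probe with the smallest excess had senile outer second. The share of all genes with this order was not computed, so the count is no result about these genes.

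Neuroblast genes of the subventricular zone and olfactory bulb, a population that also uses Meis2, were at least 1 log2 higher in 6 of 13 cases, with a median excess of 0.32 and summed signals of 86.0, 96.6, 96.3 and 118. Synpr alone made up 86.8% to 93.4% of these sums, which were 11.3, 8.53, 7.98 and 7.85 without it. Dlx6 had an excess of at least 3.34, Pax6 of at least 2.58, Dlx1 of 2.44 and Dlx5 of 2.27, while Sp8 had one of -0.15. Dlx1 read -0.51, -3.02, -1.88 and -3.96, with young inner highest by 1.36. Vax1 was not well above background on young inner.

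Cholinergic neurons, which use Isl1, had 3 of 8 genes at least 1 log2 higher and 1 lower, a median excess of 0.08, and summed signals of 1.06, 0.349, 0.663 and 0.514. Chat, the enzyme that makes acetylcholine, was not well above background on any array, and the acetylcholine transporter Slc18a3 had an excess of 0.10. Lhx8, at least 7.20-fold, and Ecel1, at least 11.7-fold, were higher on young inner, and Slc5a7 had an excess of 1.01, a bound. Ecel1 alone made up 50.3% of the list's sum on young inner, and without it the sums were 0.525, 0.334, 0.445 and 0.487.

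Dopamine neurons also carry Drd2, and 0 of 9 of their genes were at least 1 log2 higher on young inner, 1 was lower and the median was -0.05. Th, the rate-limiting enzyme of dopamine synthesis, read -1.33, -1.39, -1.39 and -1.38. The dopamine transporter Slc6a3 and the factors Foxa1 and Foxa2 were not well above background on young inner, and En1 was so on no array. The summed signals were 5.62, 7.86, 4.06 and 6.94.

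Pyramidal neurons of the CA fields had 4 of 11 genes at least 1 log2 higher and 1 lower, led by Neurod6 at 3.01. Their median was 0.51 and their summed signals were 4.45, 1.49, 3.49 and 3.57. Wfs1 alone made up 54.5% of the sum on young inner, and without it the sums were 2.03, 0.705, 2.42 and 2.44. Cortical layers had 3 of 11 and 1 lower, with a median of 0.15 and summed signals of 49.0, 51.3, 46.1 and 59.5, led by Fezf2 at 2.71. Tbr1 alone made up 55.5% to 63.9% of these sums, which were 17.7, 22.8, 17.9 and 26.1 without it. Thalamus and habenula had 4 of 12 genes at least 1 log2 higher, a median of 0.17 and sums of 10.3, 9.70, 10 and 7.21. In each of these 3 lists most genes differed by less than 1 log2.

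The linings of the ventricles were near background in part: Ttr and Kcne2 of the choroid plexus list were well above background on no array and Aqp1 was not so on young inner. Of the choroid plexus list 2 of 10 genes were at least 1 log2 higher and 1 was lower (median -0.24, sums 1.85, 1.34, 1.27 and 1.41). Sostdc1 alone made up 38.1% to 66.9% of these sums, which were 0.609, 0.552, 0.774 and 0.87 without it. For ependyma 1 of 7 was higher and 1 lower (median 0.05, sums 2.13, 1.79, 1.46 and 1.40), and Ak7, Dynlrb2 and Tmem212 were well above background on no array.

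Among glia and vessels, 0 of 10 astrocyte genes (median 0.13, sums 151, 138, 123 and 127) and 0 of 10 endothelial genes (median 0.14, sums 6.05, 5.34, 5.76 and 5.67) were at least 1 log2 higher or lower. For oligodendrocytes 2 of 10 were higher (median 0.58, sums 54.6, 52.2, 43.9 and 31.3), and for microglia 1 of 10 (median 0.01, sums 41.3, 41.5, 40.6 and 46.7). Ndrg2 alone made up 64.9% to 70.8% of the astrocyte sums, which were 52, 48.3, 35.8 and 41.6 without it. Cldn11 made up 39.6% to 59.9% of the oligodendrocyte sums and Ly6c1 45.2% to 49.5% of the endothelial sums. Mature granule neurons, the bulk of the layer, had a median excess of -0.46 and sums of 142, 176, 173 and 218, with young inner the lowest sum and senile outer the highest.

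**Figure D4:**
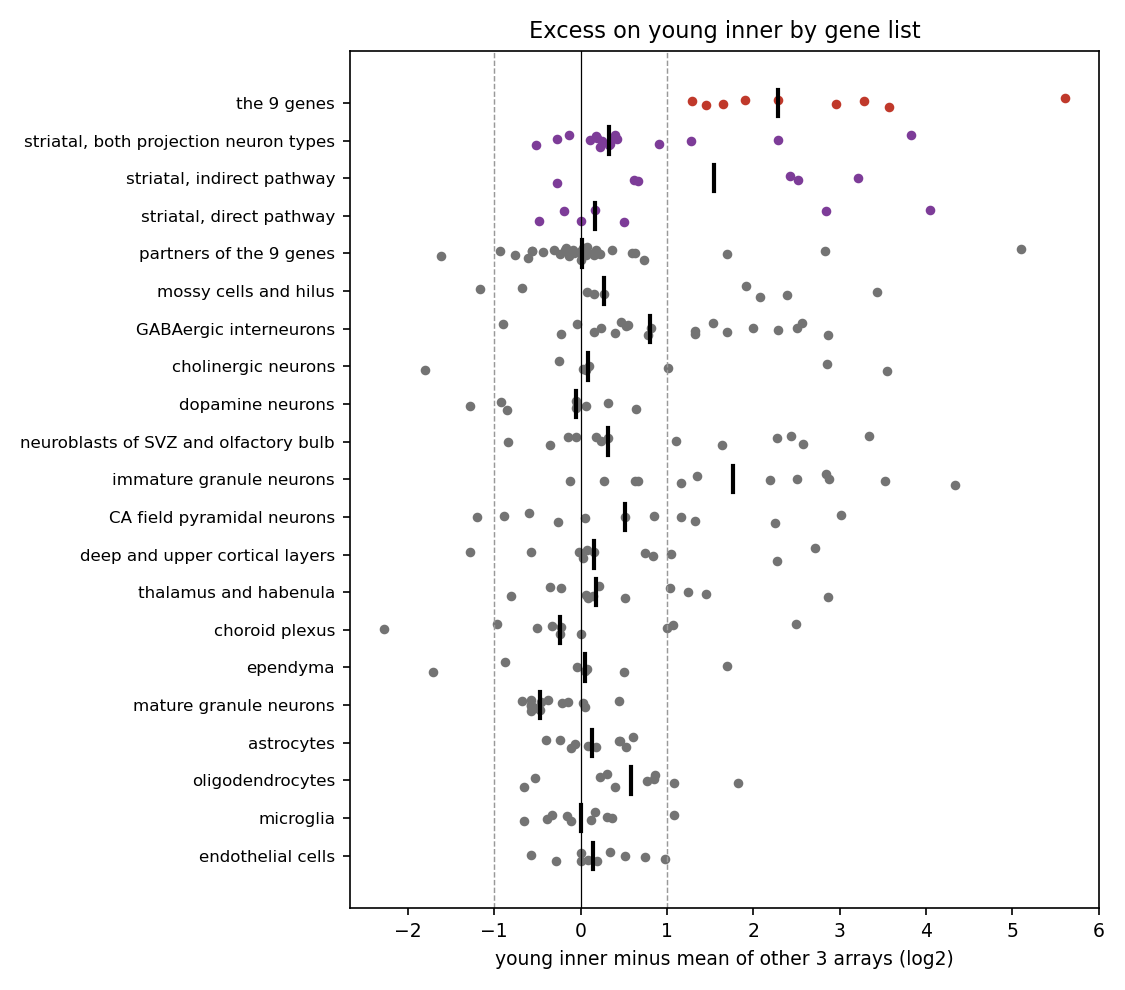
Excess of young inner over the mean of the other 3 arrays, in log2 on the horizontal axis, with 1 point per gene and a black bar at the median of each list, and dashed lines at -1 and 1. The 9 genes lie at 1.29 to 5.61, both ends being bounds, because they were chosen so, immature granule neurons have the highest median of the lists for other cells, 1.77, and mature granule neurons the lowest, -0.46.

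With each of the 9 genes centred on its own mean over the 4 arrays, the median of the 9 was 1.72 on young inner, -0.64 on young outer, -0.92 on senile inner and -0.88 on senile outer. The 10 genes nearest to that median profile, among 21331 others well above background on all 4 arrays, lay within a root mean square distance of 0.21 to 0.27. Of these 10, 7 had a symbol in the RefSeq table, namely Mast3, Scn10a, Gm35438, Cklf, Fezf2, Ptpru and St8sia2, with excesses of 2.29 to 2.71. Mast3, a serine/threonine kinase, was the nearest at 0.37, -2.03, -2.25 and -2.47. With 4 arrays, likeness of profile amounts to being high on young inner and level on the others.

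RefSeq promoter sequences of build GRCm38.p6 were matched for 5 of the 9 genes: Drd2, Isl1, Meis2, Rgs9 and Scn4b. The 250 bases before the start are shown for Meis2, which had the highest excess, and for Rgs9, which held the only motif found. Capitals in Rgs9 mark CTAATG, the letters searched for Isl1, and the build differs from that of the probes.
Meis2, chr2:116064620-116064869, minus strand: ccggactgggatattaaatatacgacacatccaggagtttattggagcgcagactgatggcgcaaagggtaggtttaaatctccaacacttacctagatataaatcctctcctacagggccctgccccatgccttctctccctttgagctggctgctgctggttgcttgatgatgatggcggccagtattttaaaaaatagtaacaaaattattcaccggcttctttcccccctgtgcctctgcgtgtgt
Rgs9, chr11:109298182-109298431, minus strand: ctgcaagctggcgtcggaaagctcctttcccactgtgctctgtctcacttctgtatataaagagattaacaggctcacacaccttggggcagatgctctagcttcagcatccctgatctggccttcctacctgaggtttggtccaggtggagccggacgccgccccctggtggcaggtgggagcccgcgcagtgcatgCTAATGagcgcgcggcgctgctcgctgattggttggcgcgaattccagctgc

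The motifs were searched on both strands from 250 bases before to 50 after the start. CTAATG was held by 1 of the 5 promoters, that of Rgs9, and by 7.36% of 32851 promoters. TGACAG, the letters for Meis factors, was in 0 of 5 and 19.2% of all, TGTTTAC, for Foxp factors, in 0 of 5 and 3.65%, and TGACGTCA, the cyclic AMP response element, in 0 of 5 and 1.79%. A match is a description of letters and was set against no measurement of binding. The share of G and C in the 250 bases ranged from 47.6% for Meis2 to 71.2% for Isl1.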

How the data were processed

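RNA from 4 microdissected pools was measured on 4 one-colour arrays. Per the file headers, the deposited scanner output is the Cy3 intensity of each spot, from Agilent Feature Extraction 10.7.3.1 (protocol GE1_107_Sep09), background-subtracted and detrended; the submitters' processing notes name version 9.5.3. Flags for outlier, saturated and well-above-background spots were taken from the deposited files. The level was the log2 of the processed intensity, from which the array's 75th percentile of 43020 non-control spots was subtracted. Outlier spots, 131 to 221 per array, were dropped and spots of a probe averaged, and a gene was represented by its brightest probe on average. Readings not well above background were set to the higher of their own value and the lowest well-above-background signal of that array (-5.95 to -5.83). The number of arrays, 1 per group, limits the precision, and no test was made.

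The 9 genes, the lists and the alternatives were chosen with earlier results of these data known. Named genes were all 9 with every probe, up to 4 per list with the largest absolute excess, the 10 nearest in profile and the 10 with the largest gap to the next array. Some genes of the lists are not reported here and were left out of the lists' counts. Other list genes named by value were chosen after their values were seen. The RefSeq table of GRCm38.p6 gave names to 26761 of 39429 probes through their accession and to 3814 through their symbol, and 8854 kept the name in the file.

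The authors also deposited a table of log2 values, with column medians of -0.0133 for young inner and -0.0084 for young outer, and of 0.0082 and 0.0803 for the senile inner and outer arrays. By probe name these correlated with the scanner values at r = 0.0019 to 0.0094, so the table's probe names could not be used and its direction and centring were not settled here. The deposited mean intensity and background median intensity served for normexp correction (limma 3.58.1, R 4.3.3, offset 50). The computation of levels and excess was tested on simulated data, for genes well above background on all 4 arrays only. That test did not cover the bounds of dim readings or variation between pools. Further alternatives were median and quantile scaling, outlier spots kept, the mean of a gene's probes, no floor, genes well above background on all 4 arrays, the highest in place of the mean of the other 3, and leaving out each of those 3.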

Additional observations from a re-analysis of the deposited data

Results flagged for a closer look

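For 4 of the 9 genes the difference between inner and outer had opposite signs at the 2 ages. The genes were chosen as high on young inner, and in senile samples 4 differences were above 0 and 4 below. The share of all genes with opposite signs was not computed, so the count is no result about these genes. Each sign rests on 1 array a side, and the difference was not tested. For Meis2, inner minus outer was 4.87 in young and -0.68 in senile samples, which are at least 5.55 apart, since senile inner was not well above background. For Ppp1r1b the values were 2.86 and -0.58, 3.44 apart. For Scn4b they were 1.95 and -0.36, 2.31 apart. Syndig1l had the smallest such difference, with 0.50 and -0.74, 1.24 apart. No group had enough samples to look for a sample far from the others.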

How the results depend on the processing

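The count of genes at least 1 log2 higher was 9 of 9 as reported and 7 to 9 under the 11 alternatives, and the number highest on young inner was 7 to 9. Over genes well above background on all 4 arrays both counts were 7 of 7, because Meis2 and Isl1 dropped out. The number highest on young inner was 9 with normexp, where Isl1 too was highest there. The median excess of 2.29 became 1.95 with normexp, 2.68 without the floor, 1.95 against the highest of the other 3 arrays, 2.46 without young outer and 2.13 without senile inner in the comparison. Normexp also moved the median excess of all genes from -0.07 to 0.31, and with it 704 genes in place of 1461 were at least 1 log2 higher; that count was 906 over genes well above background on all 4 arrays and 734 against the highest of the others. Striatal genes outside the 9 numbered 5 in place of 8 over genes above background on all 4 arrays. Ido1, Sp9 and Slc35d3 dropped out there. Genes of other cell lists numbered 19 in place of 46 against the highest of the others. The median of senile inner minus senile outer, -0.13, was 0.0 with normexp and 0.11 over genes above background on all 4 arrays. The cause of these shifts was not tested, except that the stricter filter leaves fewer genes and the highest array is never below the mean.

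Isl1 turned negative, at -0.81, against the highest of the others, because young outer was higher. It had an excess of at least 1 in 6 of 10 alternatives, with 0.78 under normexp, 0.76 without senile inner or without senile outer, 2.34 without young outer and 2.68 without the floor, against a bound of 1.29 as reported. Syndig1l fell short once, at 0.50 against the highest of the others. The remaining 7 genes had an excess of at least 1 under every alternative that gave a value: 3.14 to 5.98 for Meis2, 3.01 to 3.65 for Adora2a, 2.18 to 3.83 for Drd2, 2.72 to 3.08 for Ppp1r1b, 1.95 to 2.46 for Scn4b, 1.17 to 2.13 for Foxp2 and 1.16 to 1.90 for Rgs9. Meis2 and Isl1 gave none over genes above background on all 4 arrays. Leaving out young inner was not run, since no excess remains.

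No paired analysis was possible because each group has 1 array and whether inner and outer pools came from the same mice is not given in the sources used here. Dim readings limit Meis2 and Isl1, whose excess is a bound. The dimmer Foxp2 probes also gave bounds, whereas its brightest probe was well above background on all 4 arrays.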

Other observations

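The 10 genes furthest above the next highest array on young inner, among those well above background on all 4 arrays and outside the 9, had gaps of 2.97 to 5.58. Of these, 6 had a symbol in the RefSeq table. Pard6a, a cell polarity protein, read 2.32 on young inner, -3.27 on young outer, -3.59 on senile inner and -3.26 on senile outer, a gap of 5.58. Tfap2d, a transcription factor of the AP-2 family, read -0.38, -5.62, -5.52 and -5.13, a gap of 4.76. Evi2a followed with a gap of 3.77, Tpbg with 3.29, Plpp2 with 3.27 and Soat2 with 3.17. None of these 6 was on any list used here, and a gap of this kind rests on 1 array.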
